A study of Mus musculus with 4 samples.

Results

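Genes outside the Hox clusters that moved the same way in both Nup98-HoxA9 ES clones were compared with parental mouse embryonic stem (ES) cells. Members were the array probes that the scanner software called well above background on all 4 arrays, without the Hox cluster genes: 25499 of 55681 probes outside controls, of which 16290 carried a gene symbol and stood for 12548 of the 20284 genes that the array named. Another 30 such probes lay in the Hox clusters and were left out. Each gene was read at its brightest probe. A level is the log2 of the spot intensity with the 75th percentile of each array set to 0, and a ratio is the difference of a line's level from that of parental ES on this log2 scale, so that 1 is a 2-fold difference.

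The parental ES line was EB3. Clone #1 and clone #9 were derived from it with a Tol2 transposon that expresses FLAG-tagged Nup98-HoxA9, the N-terminal FG repeats of human Nup98 joined to the C-terminal part of HoxA9 with its homeodomain. The HoxA9-Ct ES line carries only the HoxA9 part and is 1 clone. Transposon lines were selected with hygromycin, and all lines were kept without feeder cells in medium with LIF. Each line was measured on 1 array, and the 4 arrays shared 1 slide and 1 scan. Parental ES therefore had n = 1 and Nup98-HoxA9 ES had n = 2 clones, each of which is a line grown from selected cells, so that an effect of the fusion and a difference between cloned lines cannot be told apart. An exact permutation test of 2 arrays against 1 cannot go below p = 0.333, and the number of arrays limits the precision of every value.

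Nup98 is a nucleoporin whose FG repeats take part in transport through the nuclear pore and which also contacts genes inside the nucleus. In acute leukaemia, translocations join these repeats to the DNA-binding homeodomain of HoxA9, which binds DNA together with TALE partners of the PBX and MEIS families. ES cells kept in LIF hold a naive pluripotent state. They can also give rise to primed epiblast and, at low frequency, to cells with marks of primitive endoderm, the extraembryonic layer that lines the yolk sac.

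Of 12548 genes, 58 (0.462%) were called higher and 34 (0.271%) were called lower in both clones by limma (adjusted p below 0.05 and both clones on the same side of parental ES). At least 2-fold in both clones, with no test, 203 genes (1.62%) were higher and 99 (0.789%) were lower. In 95 genes (0.757%) both clones also stood at least 2-fold above HoxA9-Ct ES, and in 58 genes (0.462%) both stood at least 2-fold below parental and HoxA9-Ct ES. The called genes that were higher started from low signal, with a median level of -2.44 in parental ES and 0.10 in the mean of the clones. Those called lower had a median of 0.06 in parental ES and -2.03 in the clones. The standard error of the mean ratio was 0.56 for every gene, because limma gave all probes the same spread, and the smallest mean ratio that was called was 1.89 in size.

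The calls rest on this shared spread. With the fit run only on probes above background on all 4 arrays, limma called 0 genes higher and 1 lower (Spink1, adjusted p = 0.0398), with 725 and 452 genes at an unadjusted p below 0.05. With quantile normalization limma called 0 in either direction, with 705 and 452 genes at an unadjusted p below 0.05. All 92 genes kept their sign under these settings. The fit on detected probes uses the same ratios, so no sign could change there. Because the calls depend on the spread, the values in each line are given beside them.

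As a check of the lines, all 8 ES markers (Pou5f1, Nanog, Sox2, Zfp42, Esrrb, Klf4, Utf1 and Dppa5a) were above background on every array, and their summed signal ran from 1120 to 1276 times the 75th percentile. Nanog was -1.61 in parental ES and -1.81 in HoxA9-Ct ES, against -1.41 and -2.01 in clones #1 and #9. Over all genes the median ratio was -0.01 and -0.06 in clones #1 and #9 and 0.00 for HoxA9-Ct ES. Genes on chromosome 15 were the exception in clone #9, with a median ratio of 0.41 over 507 genes, against 0.02 in clone #1. Of the called genes, 5 that were higher and 2 that were lower lie on chromosome 15. Clone #9 was more widely displaced than clone #1, with 690 genes at least 2-fold higher than parental ES against 251 in clone #1, and it lay further from parental ES than clone #1 in 51 of the 58 genes called higher and 24 of the 34 called lower.

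**Figure D1:**
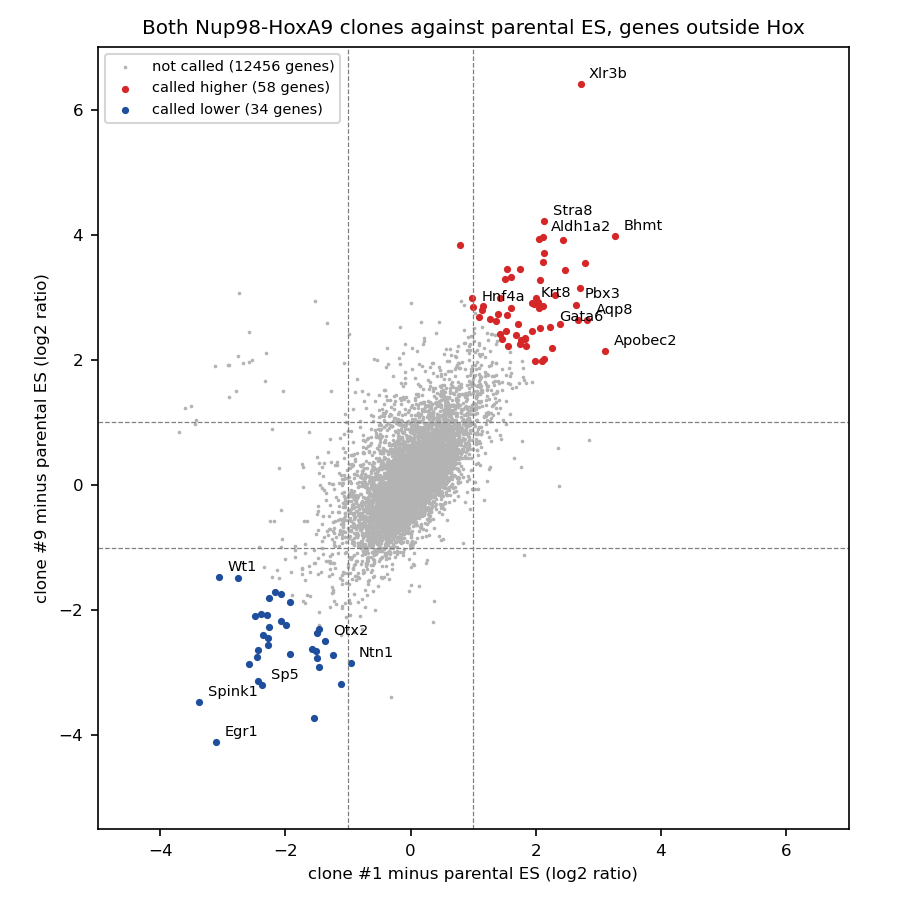
Log2 ratio to parental ES of each of the 12548 genes, clone #1 on the horizontal and clone #9 on the vertical axis, 1 point per gene with dashed lines at 2-fold. The 58 genes called higher lie in the upper right and the 34 called lower in the lower left, and a set of uncalled genes lies far to the left and above 0, low in clone #1 and high in clone #9.

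Promoter windows were looked up for the called genes in RefSeq sequence of GRCm38.p6, from 250 bases before to 50 bases after a transcript start, and were found for 42 of the 58 genes called higher and 16 of the 34 called lower. The windows of 5 called genes are printed 5′ to 3′ in lower case. These are Stra8 and Bhmt among the largest rises, Krt8 and Hnf4a from the extraembryonic lists, and Sp5 among the largest falls. Capitals mark every match, on either strand, to the GATA factor motif AGATAA, to the retinoic acid receptor core motifs AGGTCA and GGTTCA, or to the PBX-HOX octamers TGATTTAT, TGATTTAC and TGATTGAT; no octamer occurs in these 5 windows, and the motifs did not overlap in them. Hnf4a has 2 listed starts, of which the first is shown, and the window of the second holds 0 matches. All 5 printed windows hold a match, while those of Aldh1a2, Aqp3, Aqp8, Pdgfc and Myb hold 0, so the 5 do not represent all called genes.
Stra8 (chr6:34920698-34920997, plus strand): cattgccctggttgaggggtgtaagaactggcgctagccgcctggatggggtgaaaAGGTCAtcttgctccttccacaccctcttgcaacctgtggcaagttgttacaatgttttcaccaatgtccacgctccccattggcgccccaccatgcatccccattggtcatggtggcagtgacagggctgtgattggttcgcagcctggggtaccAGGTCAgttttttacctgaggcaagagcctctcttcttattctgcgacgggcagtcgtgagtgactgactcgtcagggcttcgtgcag
Bhmt (chr13:93637709-93638008, minus strand): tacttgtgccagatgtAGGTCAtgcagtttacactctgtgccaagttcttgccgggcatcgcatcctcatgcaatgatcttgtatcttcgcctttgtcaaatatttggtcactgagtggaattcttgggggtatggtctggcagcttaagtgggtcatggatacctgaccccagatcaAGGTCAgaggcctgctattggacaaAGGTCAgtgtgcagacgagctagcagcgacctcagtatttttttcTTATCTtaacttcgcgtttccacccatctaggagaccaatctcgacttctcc
Krt8 (chr15:102004293-102004592, minus strand): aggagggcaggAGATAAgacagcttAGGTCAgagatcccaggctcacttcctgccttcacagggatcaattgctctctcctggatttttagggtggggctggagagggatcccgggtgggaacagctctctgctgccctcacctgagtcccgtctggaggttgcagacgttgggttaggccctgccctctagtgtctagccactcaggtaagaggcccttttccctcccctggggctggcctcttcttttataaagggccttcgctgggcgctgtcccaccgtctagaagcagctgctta
Hnf4a (chr2:163506607-163506906, plus strand): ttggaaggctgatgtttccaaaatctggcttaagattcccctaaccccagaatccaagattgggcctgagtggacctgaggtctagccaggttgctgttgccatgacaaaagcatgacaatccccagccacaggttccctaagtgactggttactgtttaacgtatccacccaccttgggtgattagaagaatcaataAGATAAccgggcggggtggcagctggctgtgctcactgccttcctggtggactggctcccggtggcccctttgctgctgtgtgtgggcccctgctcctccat
Sp5 (chr2:70474673-70474972, plus strand): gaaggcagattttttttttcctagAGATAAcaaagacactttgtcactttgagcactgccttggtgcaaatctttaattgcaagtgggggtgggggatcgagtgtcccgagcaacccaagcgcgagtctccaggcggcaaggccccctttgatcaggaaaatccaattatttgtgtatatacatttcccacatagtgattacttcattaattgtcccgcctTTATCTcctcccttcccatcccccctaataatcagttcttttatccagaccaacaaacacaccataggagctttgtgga
A GATA match was held by 11.2% of all 32851 promoter windows and a retinoic acid receptor core motif by 24.8%, while 1.53% held TGATTTAT or TGATTTAC and 0.746% held TGATTGAT. Counted per gene over all its windows, a GATA match was present in 10 of the 42 genes called higher, 3 of the 16 called lower and 7.66% of the genes tested that had a window. A receptor core motif was present in 15 of 42, 5 of 16 and 23.9%, and TGATTTAT or TGATTTAC in 1 of 42 (Xlr3b), 1 of 16 (Stx3) and 1.02%. These are matches of letters and were not tested.

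Genes of the retinoic acid pathway were among those higher in both clones. Retinoic acid is made from retinol and acts through nuclear receptors as a differentiation signal. Of 15 detected genes on the list of the pathway and its targets, 3 were called higher, 5 were at least 2-fold higher in both clones (33.3%, against 1.62% of all genes) and 0 were lower by either measure. The median ratio over the list was 0.18 and 0.62 in clones #1 and #9, and -0.06 for HoxA9-Ct ES. This list and those below were written with earlier results of these data known. Their shares are therefore descriptions, and no list was tested.

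Aldh1a2, the enzyme that makes retinoic acid from retinaldehyde, was 0.20 and 2.04 in clones #1 and #9, compared with -1.91 in parental and -1.83 in HoxA9-Ct ES. Its mean ratio of 3.04 corresponds to 8.20-fold (limma adjusted p = 1.6e-05). Stra8, a retinoic acid target that marks germ cells entering meiosis and whose printed promoter window holds 2 receptor core motifs while those of Aldh1a2 and Dhrs3 hold 0, was at 1.97 in parental ES, 4.10 and 6.18 in the clones (#1 and #9) and 2.31 in HoxA9-Ct ES, a mean rise of 9.04-fold (limma adjusted p = 4.2e-06). Parental and HoxA9-Ct ES lay close together for both genes, and the 2 clones lay above both lines with clone #9 the highest. Dhrs3, which reduces retinaldehyde back to retinol, was -0.72 in parental ES and -0.13 in HoxA9-Ct ES, against 1.31 and 2.20 in clones #1 and #9 and rose by 2.48 (limma adjusted p = 0.00143). Cdx1, a caudal homeobox factor, had ratios of 1.099 and 2.10 and Nrip1, a nuclear receptor corepressor, of 1.09 and 1.33, and neither passed the test. The receptors themselves stayed within 2-fold, with ratios of -0.17 and -0.31 for Rara, -0.11 and 0.62 for Rarg and 0.11 and 0.29 for Rxra.

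Every call among genes of primitive endoderm was a rise. Of 13 detected genes on the list, 3 were called higher, 5 were at least 2-fold higher in both clones (38.5%) and 0 were lower. The list's median ratio was 0.91 and 1.64 in clones #1 and #9, and -0.51 for HoxA9-Ct ES.

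Gata6, a transcription factor that specifies primitive endoderm, was 0.24 and 0.53 in clones #1 and #9, compared with -1.998 in parental and -3.38 in HoxA9-Ct ES, and its mean rise was 5.21-fold (limma adjusted p = 0.00275). Gata4, its partner in the same lineage, was at -2.50 in parental ES, -0.72 and -0.53 in the clones (#1 and #9) and -3.67 in HoxA9-Ct ES and missed the threshold (limma adjusted p = 0.0507). Both genes were lowest in HoxA9-Ct ES. Aqp8, a water channel, was -2.58 in parental ES and -3.70 in HoxA9-Ct ES, against 0.24 and 0.06 in clones #1 and #9 (mean ratio 2.73, limma adjusted p = 0.000219). Hnf4a, a nuclear receptor of visceral endoderm, was -1.21 and 0.64 in clones #1 and #9, compared with -2.20 in parental and -2.30 in HoxA9-Ct ES, so that its call (limma adjusted p = 0.042) rested mainly on clone #9. Sox7 had ratios of 1.22 and 1.59, Runx1 of 0.91 and 1.60 and Serpinh1, a collagen chaperone, of 1.05 and 1.43, none of them called. Lrp2, an uptake receptor of visceral endoderm, did not share this pattern, with 0.03 and -0.98.

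Sox17, Dab2 and Foxa2, further factors and markers of this layer, were not above background in HoxA9-Ct ES and so were no members. Sox17, which specifies endoderm, read -2.80 in parental ES, -0.91 in clone #1 and -0.66 in clone #9. All 9 markers checked for primitive endoderm were above background in both clones, against 8 in parental and 5 in HoxA9-Ct ES. Their summed signal was 2.24 times the 75th percentile in parental and 1.16 times in HoxA9-Ct ES, and 5.40 and 8.22 times in clones #1 and #9. In RNA of a whole culture, more cells of a type and more RNA per cell cannot be told apart. The related basement membrane list, whose products primitive endoderm lays down in quantity, had 4 of 20 detected genes at least 2-fold higher and 0 called by limma (5 at an unadjusted p below 0.05). These were Col4a1 (1.45 and 1.65) and Col4a2 (1.36 and 1.76), the chains of type IV collagen, Tinagl1 (1.35 and 2.40) and Serpinh1, while the laminin Lamb1 (-0.44 and 0.04) and the nidogen Nid1 (-0.18 and -0.11) stayed near parental ES. Of 11 detected genes on the list of secreted products of visceral endoderm, 1 was called, Spink1, which fell, and the median ratio of the list was 0.26 and 0.37 in clones #1 and #9. Afp and Ttr were not above background on any array, and Dkk1, a secreted Wnt inhibitor undetected in HoxA9-Ct ES, read -3.99 in parental ES and -2.49 and -1.55 in the clones.

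**Figure D2:**
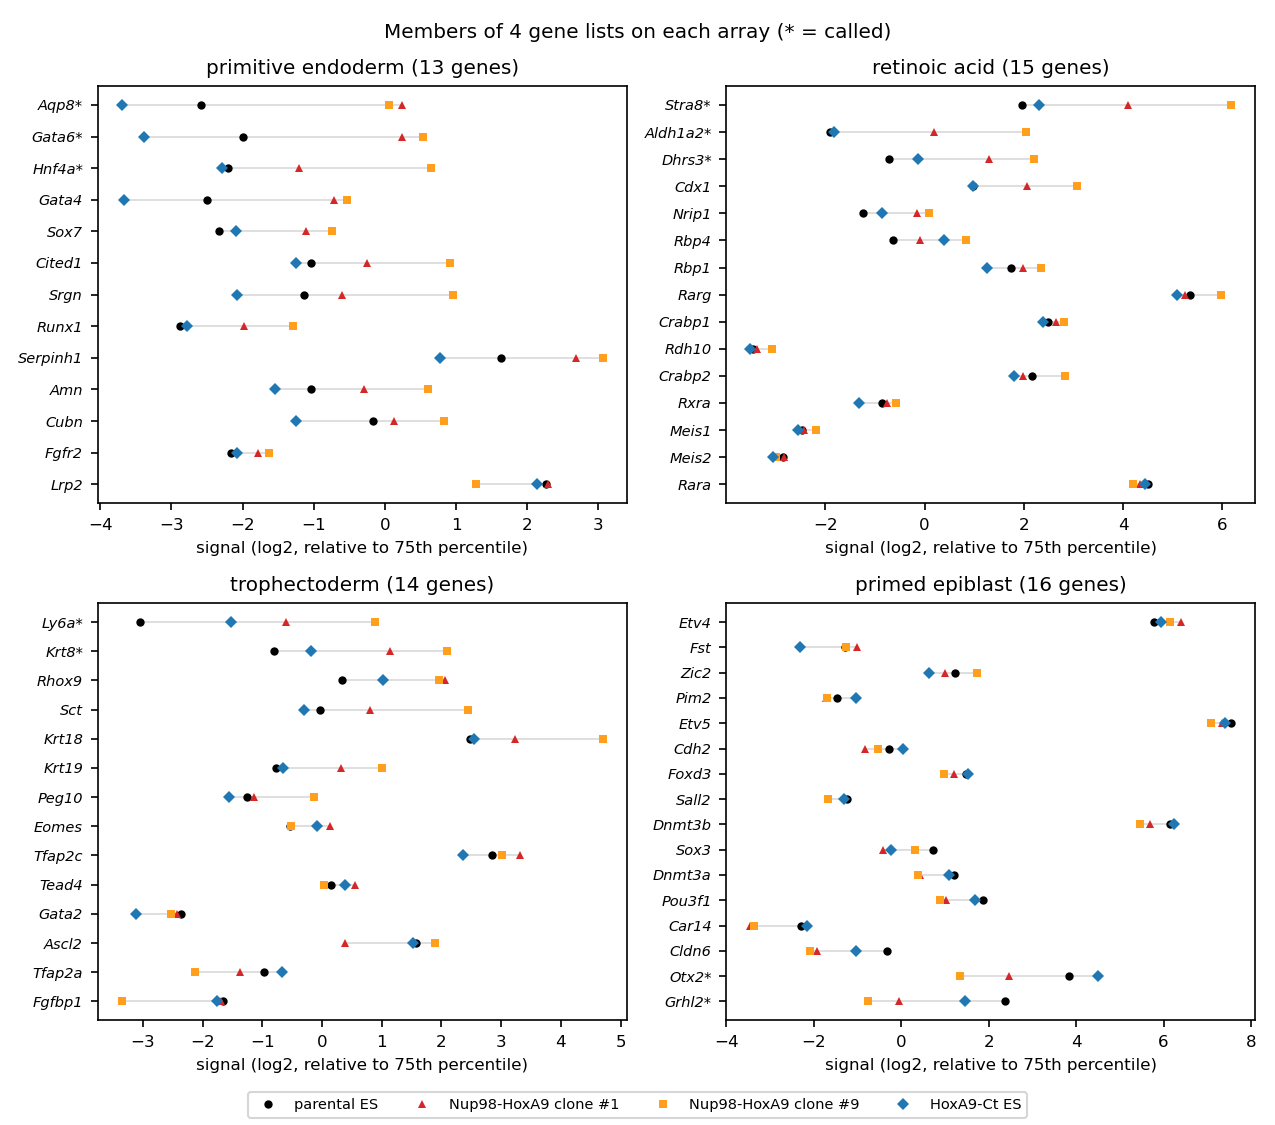
Levels on each of the 4 arrays (log2, the array's 75th percentile set to 0) of the detected genes of 4 lists, ordered by the mean ratio of the clones, with called genes starred. For Gata6, Aqp8, Aldh1a2 and Krt8 both clones lie to the right of parental and HoxA9-Ct ES, and for Otx2 and Grhl2 both lie to the left.

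Trophectoderm and simple epithelial genes gave 2 calls and 4 genes at least 2-fold higher among 14 detected (28.6%), with 0 lower. Krt8, a keratin of simple epithelia, was at -0.81 in parental ES, 1.13 and 2.09 in the clones (#1 and #9) and -0.19 in HoxA9-Ct ES (mean ratio 2.42, limma adjusted p = 0.0021), and its partner keratin Krt18 had ratios of 0.75 and 2.22. Krt19 had 1.09 and 1.78, and the homeobox gene Rhox9 had 1.73 and 1.62. Ly6a, a GPI-anchored surface protein known as the stem cell antigen Sca-1, was -3.04 in parental ES and -1.52 in HoxA9-Ct ES, against -0.61 and 0.88 in clones #1 and #9, so HoxA9-Ct ES was also above parental ES. Krt8 and Ly6a lie on chromosome 15. Of the transcription factors that define trophectoderm, Eomes had ratios of 0.67 and 0.02 and Tfap2c of 0.47 and 0.18. Cdx2 was undetected in HoxA9-Ct ES and in parental ES but above background in both clones, at -3.72 and -3.10 in clones #1 and #9, and so was no member. Elf5 was above background in clone #1 alone, and Gata3 and Hand1 in clone #9 alone. Of 8 trophectoderm markers checked, 4 were above background in parental and HoxA9-Ct ES, 6 in clone #1 and 7 in clone #9, and their summed signal was 14.0 in parental and 12.9 in HoxA9-Ct ES, against 22.8 and 39.4 in clones #1 and #9. Such a sum is weighted to the brightest markers, here Krt18, Tfap2c and Krt8. Krt18 was 2.48 in parental and 2.55 in HoxA9-Ct ES, against 3.23 and 4.70 in clones #1 and #9, and made up most of the sum in clone #9.

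Among the largest rises outside these lists were genes of metabolism and transport (grouped after their values were seen). Bhmt, which transfers a methyl group from betaine to homocysteine, was -0.79 and -0.08 in clones #1 and #9, compared with -4.06 in parental and -4.03 in HoxA9-Ct ES, a mean rise of 12.3-fold (limma adjusted p = 4.6e-08). HoxA9-Ct ES was level with parental ES, near the lower end of detection. Of 21 detected methionine and one-carbon genes, Bhmt was the only one called, and the glycine cleavage gene Gldc had -1.005 and -1.41, the only one at least 2-fold lower. Fbp2, the muscle form of fructose bisphosphatase, was at -2.96 in parental ES, -0.17 and 0.58 in the clones (#1 and #9) and -2.53 in HoxA9-Ct ES (8.99-fold, limma adjusted p = 4.5e-06). Mogat2 and Gpat3, which build glycerolipids, had ratios of 2.06 and 3.27 and of 2.67 and 2.64 in clones #1 and #9. Hal, the histidine-degrading enzyme, had 1.72 and 2.57, and Selenop, which carries selenium in plasma, had 2.39 and 2.57.

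Channels and membrane proteins were also called higher (grouped after their values were seen). Aqp3, a channel for water and glycerol, was 2.26 in parental ES and 2.76 in HoxA9-Ct ES, against 4.56 and 5.29 in clones #1 and #9, and Ano1, a calcium-activated chloride channel, was -1.21 and 0.69 in clones #1 and #9, compared with -3.25 in parental and -3.15 in HoxA9-Ct ES (limma adjusted p = 0.000351 and 2.3e-05). Both clones stood at least 4-fold above parental ES for each, with HoxA9-Ct ES within 2-fold of it. Mall, a lipid raft protein, had ratios of 2.71 and 3.15, and Ankrd44, an ankyrin repeat subunit of protein phosphatase complexes, of 2.47 and 3.44. Greb1l, a gene needed for kidney formation, had 2.11 and 3.57. Ly6c1 (2.14 and 3.71, with 1.45 in HoxA9-Ct ES) and Ly6k (1.27 and 2.65) lie like Ly6a on chromosome 15, where the median ratio over all genes was 0.41 in clone #9.

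Pbx3, which encodes a TALE homeodomain partner of HOX proteins, was at 0.44 in parental ES, 3.09 and 3.33 in the clones (#1 and #9) and 0.26 in HoxA9-Ct ES. The mean rise of 6.80-fold (limma adjusted p = 0.000158) was nearly the same in each clone. No other of the 12 detected TALE genes was called, and Pbx2 and Meis1 had ratios of 0.27 and 0.12 and of 0.04 and 0.30. Casp8 and the annexin Anxa3 were called with more modest ratios of 2.10 and 1.99 and 1.75 and 2.25.

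Germline genes included the largest mean rise among called genes with a symbol. Xlr3b, an X-linked gene of a lymphocyte-regulated family, was -3.40 in parental ES and -0.56 in HoxA9-Ct ES, against -0.69 and 2.999 in clones #1 and #9. Its mean ratio was 4.56 (limma adjusted p = 3.0e-13). The rise in clone #9 was larger than in clone #1, and clone #1 was no higher than HoxA9-Ct ES. The Xlr3 copies are near-identical, and the probe may read more than 1 of them. Rhox5, an X-linked homeobox gene, was 7.06 and 7.49 in clones #1 and #9, compared with 4.99 in parental and 4.88 in HoxA9-Ct ES (limma adjusted p = 0.00502), with HoxA9-Ct ES level with parental ES. Both stood on a list of 19 detected germline genes on which 0 others were called. Sfmbt2, an imprinted gene of a Polycomb-related protein, was called with 2.25 and 2.19, and its second probe had a mean ratio of 2.10; no other of 25 detected imprinted genes was called. Genes of the axoneme of motile cilia, Dnah17 (1.996 and 2.98), Dnaic2 (1.54 and 3.46) and Cfap206 (1.40 and 2.73), were also called higher (grouped after their values were seen).

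Among the genes called lower, Egr1, an immediate early transcription factor induced by ERK signalling, fell most. It was at 1.56 in parental ES, -1.55 and -2.54 in the clones (#1 and #9) and 1.27 in HoxA9-Ct ES, a mean fall of 12.2-fold (limma adjusted p = 5.2e-08). The other ERK response genes were not called. Of 19 detected, Egr1 was the only one called, and Fos, Dusp6 and Spry4 had ratios of 0.10 and -0.08, 0.18 and -0.83 and 0.16 and -0.67. Junb had -0.90 and -1.27. Spink1, a secreted trypsin inhibitor, was 3.99 in parental ES and 4.20 in HoxA9-Ct ES, against 0.62 and 0.52 in clones #1 and #9, and fell by nearly the same amount in each clone (10.7-fold, limma adjusted p = 3.4e-07).

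Every call among genes of the primed epiblast was a fall. Of 16 detected, 2 were called lower, 4 were at least 2-fold lower in both clones (25%, against 0.789% of all genes) and 0 were higher. Grhl2, an epithelial transcription factor, was -0.05 and -0.76 in clones #1 and #9, compared with 2.38 in parental and 1.46 in HoxA9-Ct ES (mean ratio -2.78, limma adjusted p = 0.000139), on chromosome 15, where clone #9 as a whole stood higher. Otx2, a homeobox factor of the formative epiblast, was at 3.84 in parental ES, 2.47 and 1.34 in the clones (#1 and #9) and 4.50 in HoxA9-Ct ES (limma adjusted p = 0.0391), and HoxA9-Ct ES stood above parental ES for it. Cldn6 had ratios of -1.60 and -1.77 and Car14 of -1.16 and -1.08. Dnmt3a and Dnmt3b, the de novo DNA methyltransferases, had -0.77 and -0.82 and -0.47 and -0.69, while Etv4 and Zic2 had 0.61 and 0.35 and -0.24 and 0.50. Of 30 detected naive pluripotency genes, 0 were called by limma, 0 were at least 2-fold different in both clones, and their median ratio was -0.03 in clone #1 and -0.20 in clone #9.

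Ligands and targets of developmental signals were among the genes called lower. Sp5, a direct Wnt target, was -0.66 in parental ES and -1.73 in HoxA9-Ct ES, against -3.03 and -3.86 in clones #1 and #9 (mean ratio -2.79, limma adjusted p = 0.000137). Wnt5a, a ligand of noncanonical Wnt signalling, had ratios of -2.27 and -2.27 with -1.78 in HoxA9-Ct ES, and Ccnd2, a cyclin of G1 phase, had -1.49 and -2.37 with -1.39. These 3 genes were at least 2-fold below parental ES in HoxA9-Ct ES as well. Of 13 detected Wnt targets and feedback genes, Sp5 and Ccnd2 were called lower and Cdx1 was at least 2-fold higher. Fgf15 (-2.39 and -2.06) and Fgf17 (-2.27 and -2.44), both FGF ligands, and Pdgfc (-2.58 and -2.85), a PDGF ligand, were called lower. Bmp7 had 1.11 and 1.45 and was not called.

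Transcription factors lower in both clones included Prdm1, which was -2.99 and -3.18 in clones #1 and #9, compared with -0.55 in parental and -0.94 in HoxA9-Ct ES, and Myb, which was at 0.01 in parental ES, -2.47 and -2.09 in the clones (#1 and #9) and -0.41 in HoxA9-Ct ES (limma adjusted p = 0.000934 and 0.00504). Prdm1 is known as a repressor that specifies primordial germ cells and plasma cells, and Myb as a factor of blood progenitors. For both, HoxA9-Ct ES was within 2-fold of parental ES and both clones were at least 4-fold below it. Among the 16 detected genes linked to HOXA9 or Nup98 fusions in leukaemia, Pbx3 and Myb were the only calls, and they moved in opposite directions. Wt1 (-3.06 and -1.47) and Alx4 (-1.93 and -2.70) were also called lower, but HoxA9-Ct ES shared their difference from parental ES (-1.48 and -2.41), and against HoxA9-Ct ES Alx4 turned direction, with a mean ratio of 0.10. Further falls were Tmprss13 (-2.46 and -2.75), Dpys (-2.29 and -2.56), Trim36 (-2.36 and -2.40) and Cd99 (-1.54 and -3.72), the last with -1.87 in HoxA9-Ct ES.

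**Figure D3:**
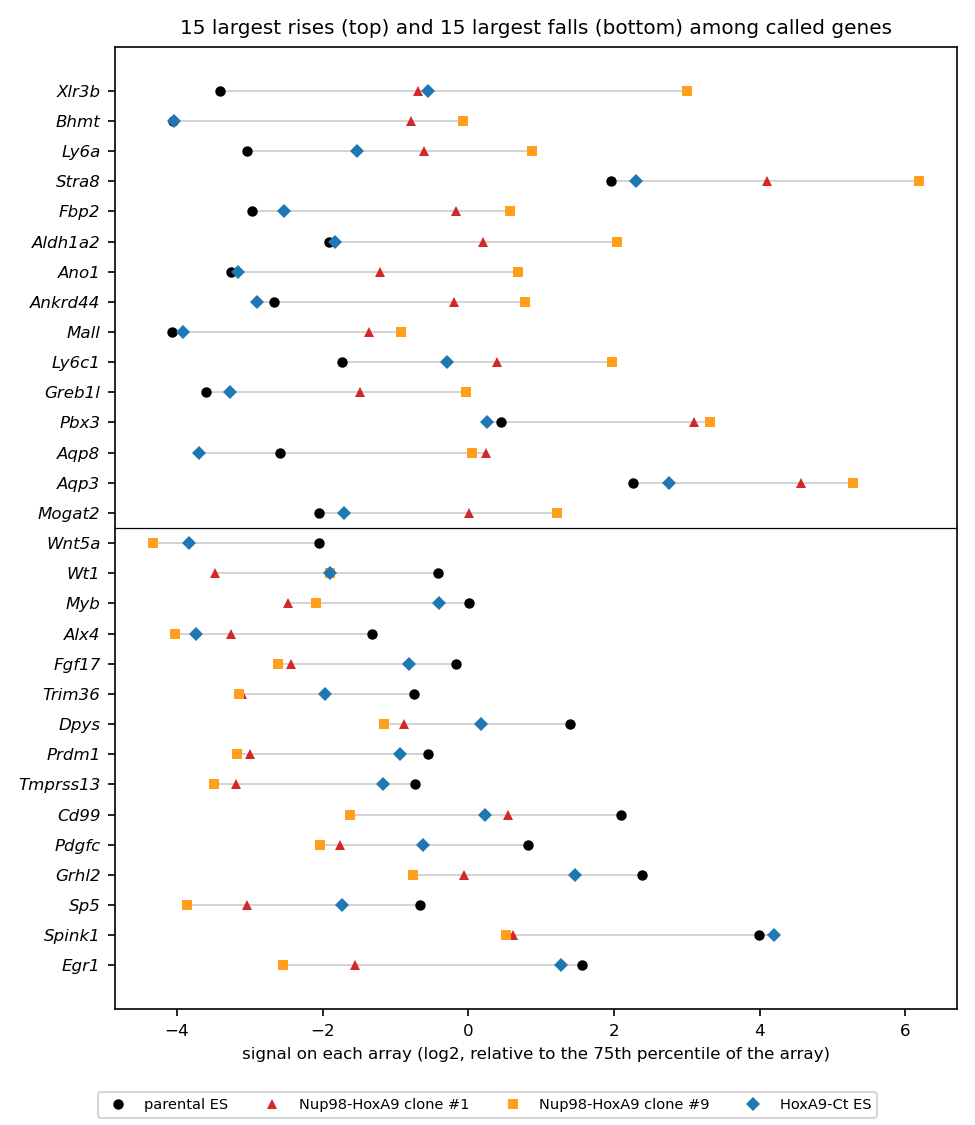
Levels on each array (log2, the array's 75th percentile set to 0) of the 15 genes with the largest mean rise and the 15 with the largest mean fall among called genes, 1 symbol per line. For Bhmt, Pbx3 and Egr1 HoxA9-Ct ES lies near parental ES and away from the clones, while for Xlr3b, Wnt5a and Alx4 HoxA9-Ct ES lies beside clone #1 or between it and clone #9.

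HoxA9-Ct ES separated the called genes into those that it shared and those it did not, though both comparisons use the same parental array. Of the 58 genes called higher, HoxA9-Ct ES lay within 2-fold of parental ES in 44, was at least 2-fold higher in 12 and at least 2-fold lower in 2 (Aqp8 and Gata6), and both clones stood at least 2-fold beyond both other lines in 38. Of the 34 called lower, HoxA9-Ct ES lay within 2-fold of parental ES in 22 and was at least 2-fold lower in 12, and both clones stood beyond both other lines in 21. The 12 shared rises were Xlr3b, Ly6a, Ly6c1, Rcsd1, Vstm2l, Slc38a8, Sfmbt2, Fam20a, Cfap206, Tmc7, Spns3 and Prrx2. The 12 shared falls were Sp5, Pdgfc, Cd99, Dpys, Trim36, Alx4, Wt1, Wnt5a, Nrcam, H3c15, Ccnd2 and Crmp1. A difference of the parental array alone and a change common to transposon lines cannot be told apart for these genes. With HoxA9-Ct ES in place of parental ES as the reference, limma called 45 genes higher and 17 lower, of which 29 were among the 92 called against parental ES.

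Several gene groups gave no call. By limma, 0 genes were called on the lists of 44 nuclear pore and transport genes, 38 ribosomal proteins, 35 genes of oxidative phosphorylation, 35 of replication and mitosis, 37 of the Polycomb and Trithorax complexes and 28 of cholesterol synthesis, with 2 of these 217 list entries at an unadjusted p below 0.05. Nup98 itself, whose mouse probe was not shown to read the human part of the transgene, was 1.32 in parental ES and 1.31 in HoxA9-Ct ES, against 1.12 and 0.92 in clones #1 and #9, and the export factor gene Xpo1, which encodes Crm1, was 4.12 and 4.11 in clones #1 and #9, compared with 4.25 in parental and 3.92 in HoxA9-Ct ES. Gapdh had ratios of 0.10 and -0.08 and Actb of -0.19 and -0.37.

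The 2-cell-like genes lay on opposite sides of parental ES in the clones, with a list median of -2.53 in clone #1 and 1.03 in clone #9 over 9 detected genes. Zscan4c, which marks the transient 2-cell-like state, was at 2.73 in parental ES, -0.17 and 4.65 in the clones (#1 and #9) and 2.62 in HoxA9-Ct ES. Fibroblast markers had a list median of 0.09 in clone #1 and 1.17 in clone #9, and Col1a1 was -3.59 in parental ES and -2.97 in HoxA9-Ct ES, against -3.77 and -1.66 in clones #1 and #9. The summed signal of 8 fibroblast markers was 7.83 in parental and 10.8 in HoxA9-Ct ES, against 9.60 and 17.9 in clones #1 and #9. Thy1 alone made up most of this sum on every array, at levels of 2.89 in parental and 3.36 in HoxA9-Ct ES and 3.18 and 4.06 in clones #1 and #9. The defining markers Lum, Dcn and Postn were not above background on any array. The part of such cells in the rises of clone #9 was not tested.

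**Figure D4:**
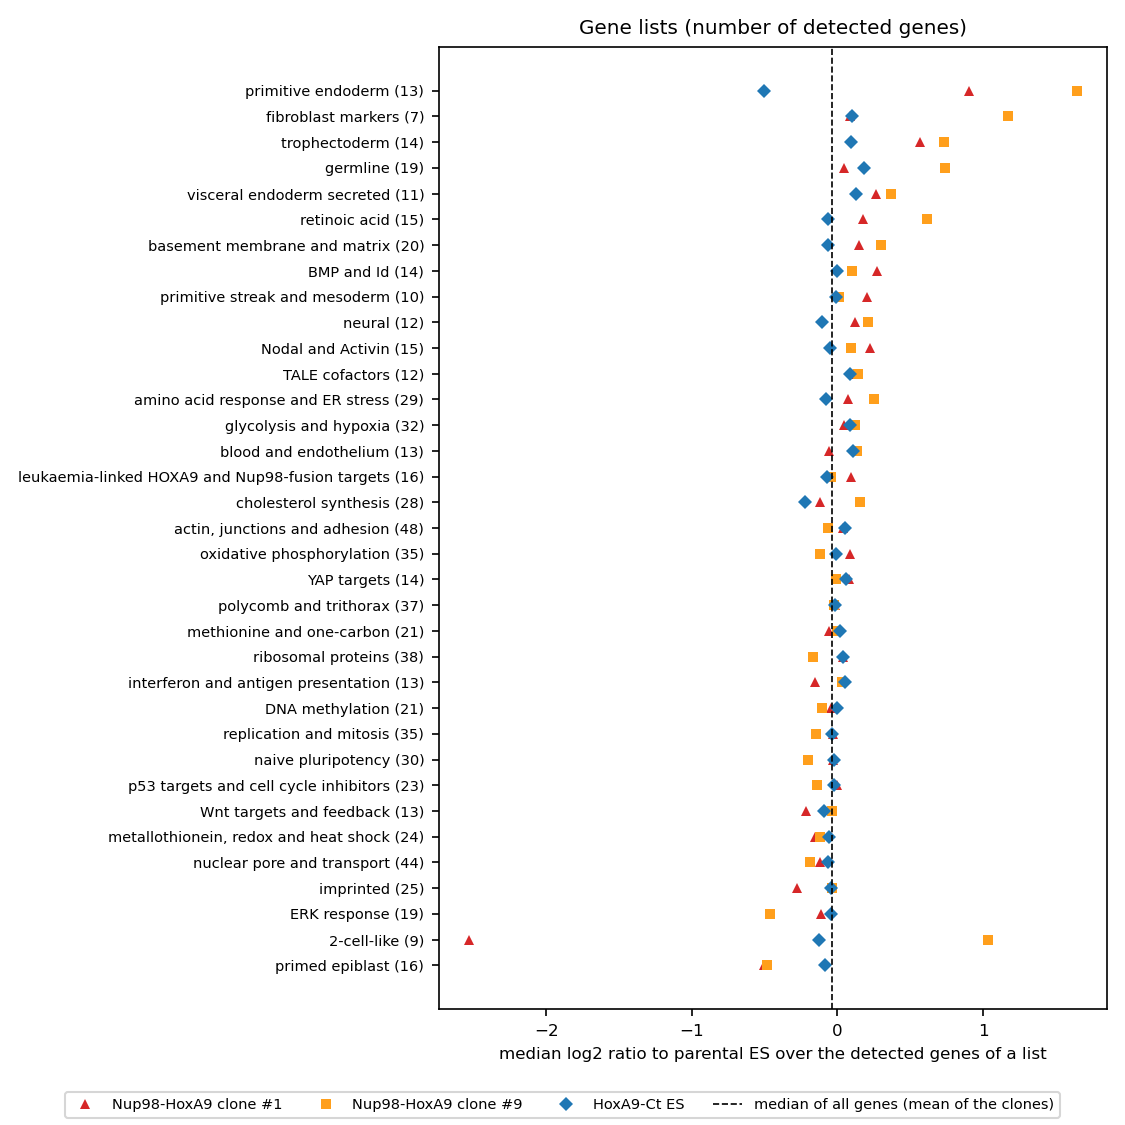
Median log2 ratio to parental ES over the detected genes of each of 35 lists, for clone #1, clone #9 and HoxA9-Ct ES, with the number of genes in brackets and a dashed line at the median of all genes. Primitive endoderm lies highest in both clones and lowest in HoxA9-Ct ES (-0.51), primed epiblast lies at -0.50 and -0.49, and the 2-cell-like genes lie on opposite sides in the 2 clones.

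Of 25499 member probes, 87 were called higher and 56 lower, and 22 and 18 of these carried no gene symbol. Some of the 18 falls were falls of clone #9 more than shared ones. At chr2:174088550-174109425, reverse strand, called probes had ratios from -0.27 to -0.14 in clone #1 and from -4.85 to -4.31 in clone #9. The largest called rises were among the probes without a symbol. The probe of the cDNA AK145700 was -2.95 in parental ES and -1.70 in HoxA9-Ct ES, against 3.17 and 4.05 in clones #1 and #9, a mean ratio of 6.56 (limma adjusted p = 2.9e-28). The 3 probes of the transcript ENSMUST00000172100 had mean ratios of 4.38, 6.14 and 6.29, the probe of AK166824 of 5.88, and both probes of AK167004 of 5.15 and 5.53. In each of these probes both clones stood far above parental ES, with HoxA9-Ct ES at ratios of 0.81 to 1.45. Several long noncoding RNA regions, named by the array annotation with mm9 positions, were read by more than 1 probe. On chromosome 2, all 4 probes of the reverse strand at chr2:154235540-154248551 and all 3 within it at chr2:154244616-154245900 were at least 2-fold lower in both clones, from -2.14 to -1.42 in clone #1 and from -1.98 to -1.58 in clone #9, against -0.70 to -0.41 in HoxA9-Ct ES. At chr5:123439974-123448354, forward strand, all 3 probes were at least 2-fold lower, from -1.62 to -1.38 in clone #1 and from -2.10 to -1.80 in clone #9. The region chr8:41730287-41746862, forward strand, was higher in all 4 of its probes, from 1.12 to 1.31 in clone #1 and from 1.95 to 2.81 in clone #9. The probes of a region share its transcript and are not replicates.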

How the data were processed

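The authors deposited scanner output of 4 one-colour Agilent 8×60K mouse arrays, read with Agilent Feature Extraction 10.10.1.1 as background-corrected spot intensities. The arrays were hybridised with Cy3-labelled cRNA made from total RNA. A series matrix of normalised intensities was deposited too, which the authors made by a scaling not stated in it. The log2 of the deposited matrix served as an alternative. Each array held 59305 spots, of which 49.9% to 53.0% were well above background. Control spots were left out, spots of a probe were averaged, log2 intensities were taken relative to the 75th percentile of each array, and limma 3.58.1 (R 4.3.3) was fitted to 55562 probes in 3 groups, leaving 1 residual degree of freedom, with Benjamini-Hochberg adjustment over all probes. The fit was tested on simulated data. Tables and plots used Python 3.11.15, pandas 2.3.3, numpy 2.4.6 and matplotlib 3.10.9. Symbols came from RefSeq (GRCm38.p6) through the transcript accession of a probe, which 26762 probes matched, and the others were left without a symbol. Probes named by position inside wide mm9 windows around the Hox clusters were left out with the Hox genes.

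The genes named were the 15 largest called rises and falls and the called members of 35 lists; other genes named were list members or were chosen after their values were seen. Members and lists were chosen with earlier results of these data known. Alternatives were median and quantile scaling, normexp with offset 50 on the median spot and background signals, the matrix, mean over probes, HoxA9-Ct ES as the reference, alone or averaged with parental ES, fits on detected probes, trend and robust moderation, other fold thresholds, and leaving out a clone, chromosome 15 or the last eighth of the spot rows, those nearest 1 edge of the array. Nothing in the labels says that arrays came from separate cultures of a line. In the fit reported, p-values rest on 1 spread between the 2 clones, pooled over the 55562 probes fitted. The spread of a single gene between the clones did not enter its p-value.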

Additional observations from a re-analysis of the deposited data

How the results depend on the processing

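The number of called genes depended on the estimate of the spread. Against 58 higher and 34 lower (311 and 144 at an unadjusted p below 0.05), limma called 294 and 160 after normexp correction, 329 and 192 with trend and robust moderation (83 of these among the 92), 4 and 2 on the series matrix values (Aqp8, Bhmt, Gpat3 and Pbx3, and Pdgfc and Spink1), and 0 and 1 when fitted on probes above background on all 4 arrays. It called 0 and 0 with quantile normalization (705 and 452 at an unadjusted p below 0.05), 0 and 0 when fitted on probes above background on at least 1 array (393 and 240), 0 and 0 against the mean of parental and HoxA9-Ct ES (821 and 615), and 45 and 17 against HoxA9-Ct ES. The prior spread on the log2 scale was 0.454 in the fit reported and 0.198 when fitted on probes above background on all 4 arrays, but with few prior degrees of freedom in the latter (4.18, against an infinite number). Median scaling gave 53 higher and 33 lower, and the mean over probes 54 and 31. Leaving out chromosome 15 (53 and 32) or the last eighth of the spot rows (53 and 29) only dropped genes from the finished calls. No new fit was made there, so these counts do not show how the other calls depend on those genes. Genes at least 2-fold different in both clones numbered 71 and 46 after normexp, which compresses low signal, 591 and 348 at 1.5-fold, 25 and 15 at 4-fold, and 251 to 690 higher and 248 to 255 lower in a single clone. Alx4 reversed to 0.10 against HoxA9-Ct ES, and the other called genes kept their direction under every alternative. With either clone left out no called gene could reverse, because a call required both clones on the same side of parental ES. Among uncalled genes Gm4340, a 2-cell-like gene, was 1.03 without clone #1 against a mean of -1.19, and the small ratios of Nanog, Gapdh and Xpo1 changed sign under some alternatives. Without 1 clone no residual degree of freedom remains, so called counts have no value there. No paired analysis was possible because clone numbers match no number in another group. The number of arrays and the low signal of the genes called higher limit these results.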

Other observations

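Genes that were above background in the clones and not in parental ES could not be members, since all 4 arrays had to detect them. Of 7667 genes with no probe above background on all 4 arrays, 340 were above background in both clones and not in parental ES, and 110 in parental ES and in neither clone. For these only a bound can be given: the mean of the brighter arrays against, on each dim array, the higher of its lowest signal among probes above background and the dim probe's own signal, as a mean of normalised log2 values. The bound reached 2-fold in 84 genes that were brighter in both clones, of which 37 were above background in HoxA9-Ct ES too, and in 51 that were dimmer. Spots near the array edge, left out as an alternative above, were kept in these counts. Among the dimmer genes the widest bounds, of Klra6 (18.4-fold) and Ipcef1 (18.1-fold), came from such edge spots, while that of Myt1l (18.0-fold) did not. An effect of array position on the bounds was not tested.

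Several of these genes stand on the lists described above. Folds here are bounds for the mean of the clones. Pdgfra, a receptor of primitive endoderm, was at least 6.48-fold higher (limma adjusted p = 0.000287 for the measured difference, not for the bound), with log2 bounds of 2.62 and 2.77 in clones #1 and #9. Pdgfra was not well above background in parental and HoxA9-Ct ES, and read -1.42 in clone #1 and -1.27 in clone #9. Rarb, a retinoic acid receptor that is also a target, was at least 3.37-fold higher, and Cyp26a1, which degrades retinoic acid, at least 2.80-fold higher. Neither was above background in HoxA9-Ct ES. The log2 bounds in clones #1 and #9 were 1.13 and 2.38 for Rarb and 0.68 and 2.29 for Cyp26a1. Igf2, an imprinted growth factor gene, was at least 2.95-fold higher (log2 bounds 0.86 and 2.26 in clones #1 and #9). Baalc, a gene linked to acute leukaemia, was at least 5.17-fold higher (log2 bounds 1.46 and 3.28) and lies on chromosome 15. In the other direction Cdk6, a cyclin-dependent kinase, was at least 2.66-fold lower, and HoxA9-Ct ES had it above background. The Cdk6 bound was read from a spot near the array edge.

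Among the widest bounds outside the lists, chosen after their values were seen, Msx3, a homeobox gene of the neural tube, reached at least 26-fold above parental ES, but HoxA9-Ct ES was higher than either clone, with 3.56 against 0.28 and 0.57. Hormad2, a meiotic chromosome axis gene, was at least 8.02-fold higher. Myt1l, a neuronal transcription factor, was at least 18.0-fold lower and was above background in parental ES alone, and Insm1, a neuroendocrine factor, was at least 14.7-fold lower and stayed above background in HoxA9-Ct ES at -1.77.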
